A study of Mus musculus with 12 samples.

Results

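The proteasome and ubiquitin pathway genes described here were chosen by gene symbol alone, as the probes whose annotated symbol begins like those of proteasome subunits, ubiquitin-conjugating enzymes, ubiquitin-specific and carboxy-terminal proteases, cullins or F-box proteins. The rule found 206 probes of 130 genes among the 15600 probes of the array, of which 9191 carry 1 symbol, for 6786 genes. Another 4 probes matched but carry several symbols and were left out. The symbol rule also took in Psmc3ip and Psme3ip1, which are not proteasome subunits. RNA of mouse kidney cortex was compared between 3 samples labelled menopausal, whose treatment is given as VCD, and 3 samples labelled control, whose treatment is given as control. The labels do not spell out VCD, which in mouse work on menopause usually stands for vinylcyclohexene diepoxide, a chemical that destroys small ovarian follicles. The sources used here do not give strain, sex, age or dose, or whether 1 mouse or several went into a cortex sample. The p-values of the comparison of groups therefore cover only the spread among these 6 samples. Those within a group rest on the technical spread between arrays of the same RNA. Each of the 12 arrays held a pair of samples in 2 colours, Alexa Fluor 546 and Alexa Fluor 647, and each sample was on 4 arrays.

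The ubiquitin system tags proteins for destruction in a relay. An activating enzyme, E1, passes ubiquitin to a conjugating enzyme, E2, and a ligase, E3, attaches it to the substrate, often as a chain. Cullins are the scaffolds of the largest family of ligases, and F-box proteins are the parts that pick substrates for the ligases built on Cul1. Deubiquitinases trim or remove the chains. The 26S proteasome then degrades the tagged protein: its 19S cap binds and unfolds the substrate, and its 20S core, a barrel of alpha and beta subunits, cuts it. Proteasome subunit genes share a transcriptional activator, Nfe2l1, which raises their expression through antioxidant response elements when proteasome activity is short. In the kidney the pathway also sets the level of transport regulators, for example of the WNK kinases through Cul3 in the distal nephron.

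The stretch around the transcription start of 4 genes of the 20S core is shown, because 14 of the 17 probes of the core had a positive difference and 3 of these genes, Psmb4, Psma4 and Psmb3, had menopausal samples that all lay above the control samples. The samples of Psmb1 were apart in the same way, but no such stretch was available for it. Psmb5, which encodes a catalytic subunit, is shown because its stretch was the only one of 10 from the core with a match to the antioxidant response element. Each stretch runs 5′ to 3′ on the gene's strand from 250 bases before the start to 50 bases after it, from RefSeq on GRCm38.p6: chr3:94886909-94887208 on the minus strand, chr9:54950609-54950908 on the plus strand, chr11:97703184-97703483 on the plus strand and chr14:54617946-54618245 on the minus strand. Capitals mark matches to 2 motifs on either strand, TGACNNNGC for the antioxidant response element and CCAAT for the CCAAT box.
Psmb4: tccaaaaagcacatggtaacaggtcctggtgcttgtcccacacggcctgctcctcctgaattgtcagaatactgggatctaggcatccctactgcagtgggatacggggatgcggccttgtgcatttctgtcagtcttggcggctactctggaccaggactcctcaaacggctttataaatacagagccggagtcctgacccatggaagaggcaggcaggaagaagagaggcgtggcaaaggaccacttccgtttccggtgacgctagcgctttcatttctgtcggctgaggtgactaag
Psma4: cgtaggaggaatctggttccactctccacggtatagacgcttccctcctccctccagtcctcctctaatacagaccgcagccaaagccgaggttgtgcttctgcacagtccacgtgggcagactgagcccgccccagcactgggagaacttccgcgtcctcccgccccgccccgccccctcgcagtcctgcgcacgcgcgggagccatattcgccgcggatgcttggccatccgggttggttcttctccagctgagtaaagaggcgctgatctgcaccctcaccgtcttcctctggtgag
Psmb3: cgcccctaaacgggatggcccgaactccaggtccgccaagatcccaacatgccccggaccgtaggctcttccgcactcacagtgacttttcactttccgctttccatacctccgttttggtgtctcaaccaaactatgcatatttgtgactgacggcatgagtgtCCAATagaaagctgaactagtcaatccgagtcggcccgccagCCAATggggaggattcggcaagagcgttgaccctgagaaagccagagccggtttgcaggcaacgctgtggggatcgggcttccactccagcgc
Psmb5: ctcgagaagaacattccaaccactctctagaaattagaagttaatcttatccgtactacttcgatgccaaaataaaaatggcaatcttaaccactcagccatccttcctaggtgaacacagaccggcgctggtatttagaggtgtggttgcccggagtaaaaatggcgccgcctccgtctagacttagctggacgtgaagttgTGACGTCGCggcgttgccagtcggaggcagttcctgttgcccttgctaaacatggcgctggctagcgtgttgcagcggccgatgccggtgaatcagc
The match in Psmb5 begins 47 bases before the start, and Psmb3 has 2 CCAAT matches. Of the 130 genes, 102 matched an entry of the promoter table, among them 10 of the 20S core. TGACNNNGC occurred in 1 of the 10 core stretches (10%) and in 17 of the 102 (16.7%), against 12.5% of 27025 genes. CCAAT occurred in 6 of the 10 core stretches (60%) and in 29 of the 102 (28.4%), against 37.9% of all. No match of one motif overlapped a match of the other in these 102 stretches. A match is a description of letters and not of a bound site.

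Sample values are on the log2 scale and set to a mean of 0 over the 6 samples. A difference is the menopausal minus the control mean on that scale, ± its standard error in limma (3 samples per group). Probes were kept where either group had 6 or more of its 12 channel measurements more than 2 SDs above the local background, which left 135 probes of 100 of the genes, out of 7683 kept probes on the array. Of the 135, 119 passed in both groups, 12 through the menopausal samples only and 4 through the control samples only, and each was above background in at least 1 measurement of both groups. Between 16.3% and 76.4% of the probes of a channel were above background, 24 to 418 spots per array were marked abnormal, and no spot of these genes was saturated. The number of cortex samples, 3 per group, limits the precision of a group difference, since the arrays are repeat measurements of the same samples. The names of genes depend on a layout of the probes that was picked from the data, since the platform's list and the scanner tables order the spots differently. Ribosomal protein probes and pairs of probes of 1 gene set the used layout apart from 15 others. Where a gene has several probes, each is cited by a number that counts pairs of adjacent copies in the platform's order.

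The main comparison asked which of these genes differ between menopausal and control cortex. limma called 0 of the 135 probes at an adjusted p of 0.05, as it did for 0% of the 7683 probes, and the smallest adjusted p among the 135 was 0.924. At an unadjusted p under 0.05 there were 7, 5 higher and 2 lower in menopausal cortex, against 4.88% of all probes (2.54% higher, 2.34% lower). The count was 3 without Control 3 and 11 without Control 1. All menopausal samples lay above all control samples at 11 probes and below them at 4, or 11.1% of the 135, against 12% of all probes (6.17% above, 5.86% below). Both shares are near those of the whole array. The differences were positive at 88 probes and negative at 47, or 65.2% positive against 50.4% of all probes, with a median of 0.023 against 0.0012. Without Menopausal 3 that median was 0.0039. Of 34 probes named here and rerun, all but Psmb4, Psmb1, Psma7 probe 1475 and Ube4b probe 11565 moved by over 1.5 times when some sample was left out (30 of 34), and 17 did so with another normalization, loess over the whole array (global loess). The 7 probes of smallest p were those of Psmb4, Psmb1, Usp10, Ube3c, Ube4b, Ube2s and Psma4. Because the samples are bulk tissue, fewer cells of a type and less RNA per cell cannot be told apart for any of these genes.

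**Figure D1:**
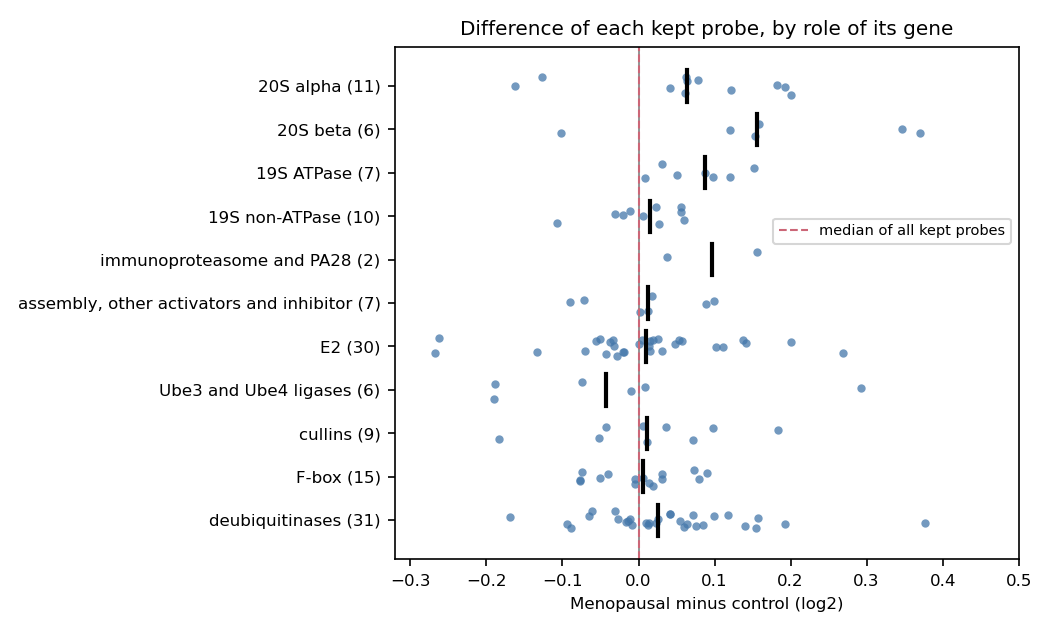
Difference of each kept probe (horizontal axis, log2, menopausal minus control), with 1 row per role of the gene, the number of kept probes in brackets, a black bar at the median of the role and a dashed line at the median of all 7683 kept probes. The 20S alpha and beta rows have medians of 0.063 and 0.16, while the E2, cullin, F-box and deubiquitinase rows have medians between 0.0062 and 0.025.

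Most probes of the 20S core were higher in menopausal cortex, without passing the test. All 17 probes of its 13 genes with a probe in the set were kept. Of these 14 had a positive and 3 a negative difference, with a median difference of 0.12 and 82.4% positive. None was called. Psmb4 encodes a beta subunit without catalytic activity. Its values were 0.31, 0.023 and 0.22 in Menopausal 1, 2 and 3, against -0.22, -0.081 and -0.25 in Control 1, 2 and 3. Every menopausal sample was above every control sample, although Menopausal 2 stood close to the mean of all samples. The difference was 0.37 ± 0.12 (limma adjusted p = 0.924).

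Psmb1, another beta subunit that does not cut, stood at 0.25, 0.15 and 0.13 in Menopausal 1, 2 and 3, against -0.24, 0.039 and -0.32 in Control 1, 2 and 3. The groups were apart here too, with Control 2 the control sample nearest to the menopausal ones, and the difference was 0.35 ± 0.12. Psmb3, a beta subunit of the same kind, measured -0.016, 0.070 and 0.18 in Menopausal 1, 2 and 3, against -0.073, -0.058 and -0.11 in Control 1, 2 and 3. Its lowest menopausal sample lay just above its highest control sample, and the difference was 0.16 ± 0.073. For Psma4, an alpha subunit of the outer rings, probe 8693 read 0.042, 0.032 and 0.22 in Menopausal 1, 2 and 3, against -0.10, -0.078 and -0.11 in Control 1, 2 and 3. The 3 control samples lay close together below all menopausal samples, of which Menopausal 3 was the highest, with a difference of 0.19 ± 0.082 that was 0.10 without Menopausal 3. The second Psma4 probe, 14397, had 0.067, 0.040 and 0.011 in Menopausal 1, 2 and 3, against -0.10, -0.14 and 0.11 in Control 1, 2 and 3. There Control 3 was the highest of all samples, so the groups overlapped, and the difference was 0.079 ± 0.10.

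The catalytic subunits with kept probes were Psmb5, which cuts after hydrophobic residues, and Psmb7, which cuts after basic ones. The beta subunit gene Psmb6 had no probe in the set. Psmb5 had 0.12, 0.046 and 0.011 in Menopausal 1, 2 and 3, against -0.054, 0.024 and -0.15 in Control 1, 2 and 3, a difference of 0.12 ± 0.070. Control 2 lay among the menopausal samples, so the groups overlapped. Psmb7 had -0.11, 0.067 and 0.28 in Menopausal 1, 2 and 3, against 0.024, -0.18 and -0.073 in Control 1, 2 and 3, a difference of 0.15 ± 0.12 with Menopausal 3 the highest and Control 2 the lowest sample. Among the alpha subunits, Psma7 differed by 0.20 ± 0.10 and 0.063 ± 0.072 at its 2 probes, Psma6 by 0.18 ± 0.14, Psma2 by 0.063 ± 0.11 and Psma5 by 0.042 ± 0.092. The Psma5 probe was measured on 11 arrays, because its spots on the other one were marked abnormal, while the other 134 probes were measured on all 12.

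The 3 negative core probes were those of Psma1 and Psmb2 and 1 of the 3 Psma3 probes. Psma1 had -0.033, 0.038 and -0.25 in Menopausal 1, 2 and 3, against 0.16, -0.0089 and 0.10 in Control 1, 2 and 3. Menopausal 3 was the lowest and Control 1 the highest sample, and the difference was -0.16 ± 0.12 with overlapping groups, or -0.059 without Menopausal 3. Psmb2 differed by -0.10 ± 0.095, and Psma3 probe 15192 by -0.13 ± 0.085, while the other Psma3 probes were at 0.061 ± 0.11 and 0.12 ± 0.10.

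**Figure D2:**
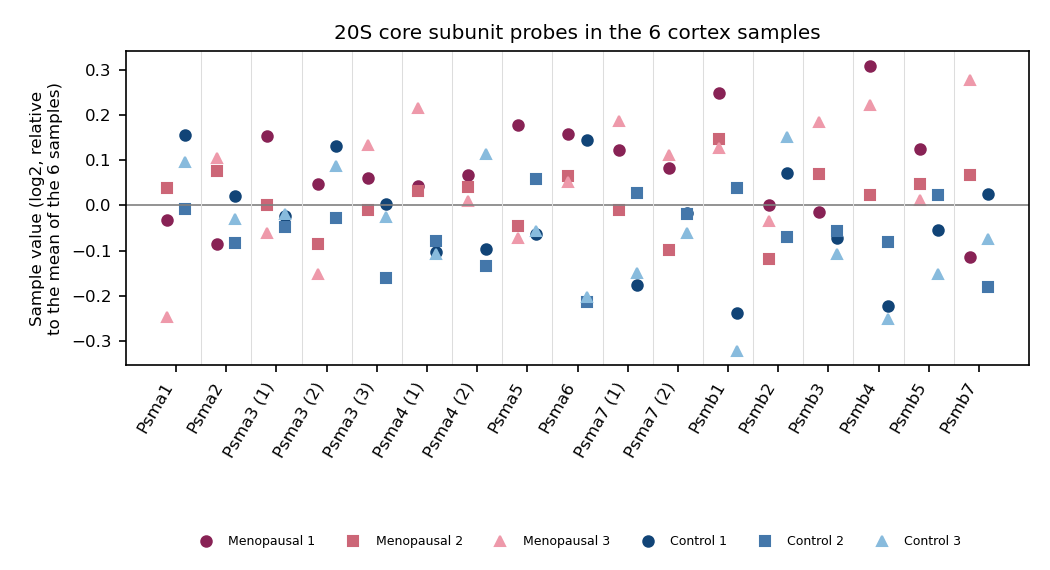
Sample values (log2, mean of the 6 samples set to 0) of the 17 probes of 20S core subunits, with menopausal samples in red to the left and control samples in blue to the right of each position and bracketed numbers for the probes of 1 gene in the order of their probe numbers. The groups do not overlap at Psma4 (1), Psmb1, Psmb3 and Psmb4.

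The median over the core probes was 0.067, 0.032 and 0.10 in Menopausal 1, 2 and 3, against -0.025, -0.058 and -0.061 in Control 1, 2 and 3. All 3 menopausal medians were positive and all 3 control medians negative, while the medians over all kept probes lay between -0.010 and 0.013. These medians restate the probes described above, and no p is given for them. In 33 alternative settings on the scanner values, of which 14 left the core median as it is, the number of positive core probes ran from 10 to 15 of 17 and their median from 0.044 to 0.18. The number was 10 and the median 0.069 without Menopausal 3. The differences of Psmb4, Psmb1, Psmb3 and Psma4 probe 8693 kept their sign in these settings, but that of Psmb3 was 0.0011 without Menopausal 3. The columns of the deposited value table match other arrays than those of their labels, so the direction of its group difference is not settled. It gave a core median of 0.0066 as read and -0.0066 with its sign turned, and the signs of these 4 probes turn with it. With all kept probes in 4 equal groups by brightness, 7 of 8 core probes were positive in the brightest group, 4 of 6 in the next and 3 of 3 in the one below, against 48.9%, 50.5% and 50.9% of all probes there.

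**Figure D3:**
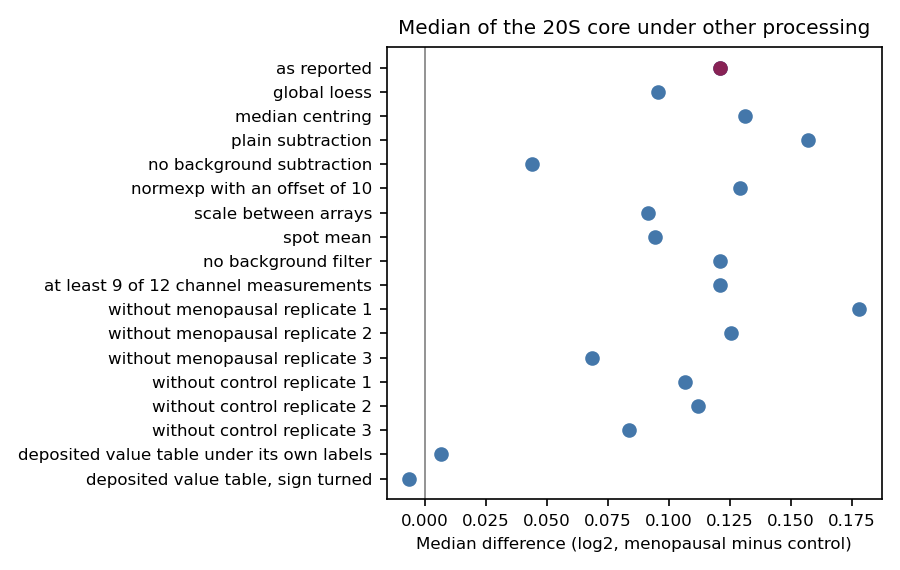
Median difference over the 17 probes of the 20S core (log2, menopausal minus control) as reported, in red, and under other processing or with 1 cortex sample left out, in blue. The medians from the scanner values are above 0. Those of the deposited value table are 0.0066 as read and -0.0066 with the sign turned. No column of it matches best the array it is labelled with, so the direction of its group difference is not settled.

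The 19S cap recognises ubiquitin chains and feeds substrates into the core. Of its 24 probes 17 were kept, with 13 positive and 4 negative differences and a median of 0.031. Its ATPases, which unfold substrates and open the core, were positive at all 7 kept probes with print-tip loess, which is fitted within each block of spots, and at 4 of 7 with global loess, so that direction depended on the normalization. Psmc2, an ATPase with 3 probes, differed by 0.15 ± 0.22 at probe 2227, 0.10 ± 0.11 at probe 1577 and 0.0079 ± 0.10 at probe 927. Psmc3 was at 0.12 ± 0.12 and Psmc1 at 0.051 ± 0.12. The 2 Psmc5 probes were at 0.087 ± 0.11 and 0.031 ± 0.12.

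The subunits of the cap without ATPase activity were positive at 6 and negative at 4 of 10 probes, with a median of 0.014. Psmd4, a receptor for ubiquitin chains, had 0.078, -0.15 and -0.086 in Menopausal 1, 2 and 3, against -0.078, 0.20 and 0.039 in Control 1, 2 and 3. Control 2 was the highest and Menopausal 2 the lowest sample, and the difference was -0.11 ± 0.092 with overlapping groups. Psmd2, which docks shuttle proteins that carry tagged substrates, was at 0.060 ± 0.068 and -0.020 ± 0.12. Psmd11, Psmd13, Psmd6, Psmd7 and Psmd8 lay between -0.031 and 0.056, and Psmd1 and Psmd3 had no kept probe. The medians over the cap were -0.00040, -0.038 and 0.12 in Menopausal 1, 2 and 3, against -0.13, 0.079 and 0.0028 in Control 1, 2 and 3. Menopausal 3 was the highest and Control 1 the lowest sample, and the groups overlapped. Over core and cap together 27 of 34 probes were positive, with a median of 0.060 that was -0.023 without Menopausal 3.

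**Figure D4:**
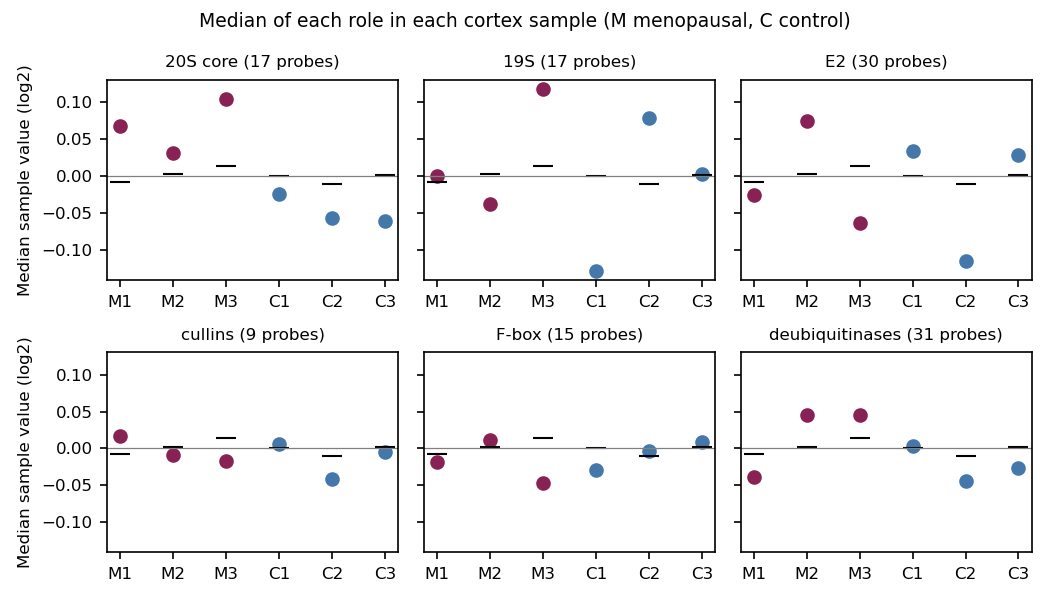
Median sample value (log2, mean of the 6 samples set to 0) of each role in Menopausal 1 to 3 (M, red) and Control 1 to 3 (C, blue), with short black bars for the median over all kept probes in the same sample. Menopausal and control medians are apart for the 20S core and overlap for the 19S cap, E2 enzymes, cullins, F-box proteins and deubiquitinases.

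Activators and assembly factors of the proteasome showed small differences. Psme1, a subunit of the PA28 cap that interferon induces, differed by 0.16 ± 0.10 and 0.037 ± 0.11 at its 2 probes, the first of which was 0.013 without Control 3, and Psmb11, the core subunit of the thymus, had no kept probe. Psme4, the activator PA200, was at 0.088 ± 0.10. The 7 kept probes of Psme4, of the chaperones Psmg1 to Psmg4 that build the core and of Psmd10, a chaperone of the cap's base, had a median of 0.012, with 5 positive and 2 negative. They ran from -0.090 ± 0.10 for Psmd10 probe 6530 to 0.10 ± 0.066 for Psmg4, which passed the background filter through the menopausal samples only.

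Among the enzymes that activate and carry ubiquitin, the E1 gene Uba6 had 2 probes, neither of them kept. E2 genes had 30 kept probes of 38, with 17 positive and 13 negative and a median of 0.0097, near that of all probes. Ube2s builds ubiquitin chains with the anaphase-promoting complex, a ligase of the cell cycle. Its probe 9158 had -0.10, 0.024 and -0.33 in Menopausal 1, 2 and 3, against -0.0048, 0.23 and 0.17 in Control 1, 2 and 3. Menopausal 3 was the lowest and Control 2 the highest sample, and Menopausal 2 lay among the control samples. The differences were -0.27 ± 0.11 at this probe (limma adjusted p = 0.924) and -0.26 ± 0.24 at probe 3375. Ube2v1, an E2-like protein that lacks the catalytic cysteine, had -0.0092, 0.12 and 0.053 in Menopausal 1, 2 and 3, against -0.090, -0.058 and -0.019 in Control 1, 2 and 3. It was the only E2 probe at which the groups did not overlap, with a difference of 0.11 ± 0.064 that was 0.014 without Control 2. Ube2d3, of the broadly acting UBE2D group, had a difference of 0.27 ± 0.23 at probe 1128, with 0.14 ± 0.17 and 0.0051 ± 0.074 at its other probes. At probe 1128 it was 0.060 without Control 2, 0.071 without Menopausal 2 and 0.57 without Control 3, and at probe 13511 it was -0.023 without Control 2. Ube2c, Ube2f, Ube2h, Ube2o and Ube2t had no kept probe.

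Of the ligases whose symbols begin with Ube3 or Ube4, 6 probes were kept, 2 positive and 4 negative. Ube3c is a ligase that binds the proteasome and lengthens chains on its substrates. It had 0.14, 0.30 and -0.0032 in Menopausal 1, 2 and 3, against -0.0041, -0.36 and -0.078 in Control 1, 2 and 3. Menopausal 3 and Control 1 were almost equal at the border between the groups, and Control 2 was far the lowest sample. The difference was 0.29 ± 0.11 (limma adjusted p = 0.924). It was -0.0017 once Control 2 was left out. Ube4b, a U-box ligase that extends chains, had -0.12, -0.0066 and -0.15 in Menopausal 1, 2 and 3, against 0.13, 0.071 and 0.080 in Control 1, 2 and 3 at probe 11565. All menopausal samples lay below all control samples, with a difference of -0.19 ± 0.074 that was -0.052 with global loess. At the other Ube4b probes it was -0.19 ± 0.11, -0.074 ± 0.095 and 0.0092 ± 0.15, with overlapping groups.

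Cullins had 9 kept probes, 6 positive and 3 negative, with a median of 0.011, and with global loess 3 were positive. Cul3 probe 15080 had -0.053, 0.0074 and -0.23 in Menopausal 1, 2 and 3, against 0.10, 0.045 and 0.14 in Control 1, 2 and 3. All menopausal samples lay below all control samples, and Menopausal 3 was the lowest, with a difference of -0.18 ± 0.10 that was 0.033 without Menopausal 3. The second Cul3 probe, 1077, had -0.11, 0.059 and 0.20 in Menopausal 1, 2 and 3, against 0.0051, -0.092 and -0.060 in Control 1, 2 and 3, a difference of 0.10 ± 0.10 of the opposite sign. Cul1, the scaffold of the F-box ligases, was at 0.18 ± 0.10 and 0.0055 ± 0.079. Cul2, which works with the von Hippel-Lindau protein, was at -0.051 ± 0.11, and Cul4b had no kept probe.

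F-box genes had 15 kept probes of 29, with 8 positive and 7 negative differences and a median of 0.0062. Fbxo21 had -0.018, -0.071 and -0.026 in Menopausal 1, 2 and 3, against 0.071, 0.036 and 0.0082 in Control 1, 2 and 3. This was the only F-box probe with groups apart, with menopausal samples below control samples and a difference of -0.077 ± 0.060 that was -0.013 without Menopausal 3. The other F-box differences ran from -0.077 for Fbxo38 to 0.090 for Fbxo22. Fbxw7, which marks cyclin E and Myc for destruction, was at 0.073 ± 0.14.

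Deubiquitinases had 31 kept probes of 63, with 20 positive and 11 negative and a median of 0.025. Usp10, which removes ubiquitin from p53, had 0.33, -0.029 and 0.26 in Menopausal 1, 2 and 3, against -0.21, -0.077 and -0.28 in Control 1, 2 and 3. Menopausal 1 and 3 were far above the other samples and Menopausal 2 just above the highest control sample. The difference was 0.38 ± 0.14 (limma adjusted p = 0.924), and 0.23 without Menopausal 3. Uchl5, a deubiquitinase bound to the 19S cap, had -0.058, 0.11 and 0.18 in Menopausal 1, 2 and 3, against -0.070, -0.085 and -0.082 in Control 1, 2 and 3. The control samples were close together and Menopausal 1 was just above them, with a difference of 0.16 ± 0.085 that was 0.053 without Menopausal 3. Usp14, another ubiquitin protease of the cap, had no kept probe.

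Menopausal samples also lay above control samples at Usp16, which acts on histone H2A, with a difference of 0.14 ± 0.073, at Usp27x with 0.085 ± 0.058 and at Usp47 probe 7324 with 0.16 ± 0.11. Without Menopausal 3 the difference was -0.0012 for Usp16 and -0.052 for Usp47 probe 7324, and without Menopausal 1 it was 0.034 for Usp27x. They lay below at Usp29 only, with -0.065 ± 0.046, or -0.026 without Menopausal 3. Usp2, a kidney protease under control of the circadian clock, was at -0.0083 ± 0.10. The 4 probes of Usp9x, an X-linked protease of many substrates, ran from -0.031 ± 0.084 to 0.19 ± 0.10.

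Different probes of 1 gene can be set side by side within the arrays. For 24 genes several probes were kept, 59 in all, and in 14 of the 24 all probes had the same sign. Over the 6 samples the 51 pairs of probes of 1 gene had a median correlation of 0.38, a description of probes that share arrays. Probes of different genes were not compared in the same way, so agreement beyond that of any such probes was not tested. The probes of Psmc5 and Psmc2 followed each other closely (median correlation 0.90 and 0.80), as did those of Ube2d3 (0.79). Those of Cul3 ran against each other (-0.68).

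**Figure D5:**
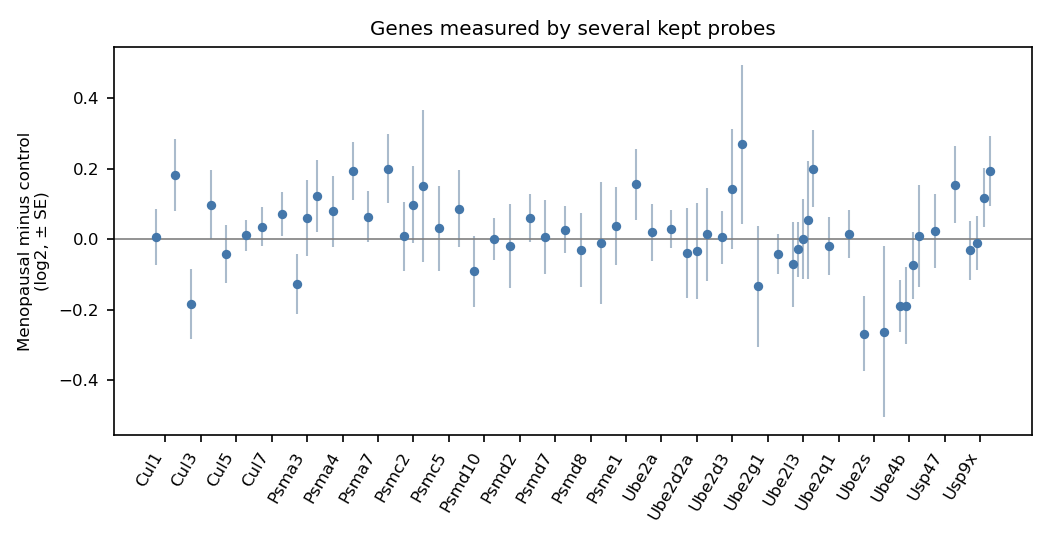
Difference of each kept probe (log2, menopausal minus control, bars ± SE from limma, n = 3 per group) for the 24 genes with several kept probes. The probes of Psma7, Psmc2, Psme1 and Ube2s share a sign, and those of Cul3, Psma3 and Usp9x do not.

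The next comparison asked how far the 3 control samples differed from one another. limma's moderated F statistic, whose error is the technical spread between arrays of the same RNA, called 0 of the 135 probes, against 1.08% of all kept probes. At an unadjusted p under 0.05 there were 13, against 13.7% of all, and 9 of these 13 were among the 30 E2 probes. Some genes count more than once in these 9, which were probes of Ube2l3 (6483, 9405 and 15326), Ube2d3 (1128 and 13511), Ube2d2a, Ube2g1, Ube2s and Ube2v2. The smallest p were those of Ube2d3: probe 13511 had 0.093, -0.46 and 0.15 in Control 1, 2 and 3 (limma adjusted p = 0.0762) and probe 1128 had -0.093, -0.64 and 0.33 in Control 1, 2 and 3 (adjusted p = 0.0952). Control 2 was far the lowest at both. It was also the lowest at Ube2s probe 3375, with 0.57, -0.35 and 0.18 in Control 1, 2 and 3, and at Ube2v2, a partner of Ube2n in chains for DNA repair, with 0.30, -0.24 and 0.018 in Control 1, 2 and 3. At Ube2l3 probe 15326 the order was the opposite, with -0.23, 0.33 and -0.18 in Control 1, 2 and 3. Other probes of Ube2l3 differed from it. Probe 6483 had 0.26, -0.18 and 0.027 and probe 9405 had 0.019, -0.19 and 0.17 in Control 1, 2 and 3. Both had an unadjusted p under 0.05, with Control 2 lowest. Over the 5 kept probes of the gene the median correlation was 0.055. The largest range outside the E2 genes with such a p was that of Psmd8 probe 10447, with -0.20, 0.38 and -0.16 in Control 1, 2 and 3, where Control 2 was the highest, and Usp25 had 0.29, -0.19 and 0.030 in Control 1, 2 and 3.

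The medians over the E2 probes were -0.026, 0.074 and -0.063 in Menopausal 1, 2 and 3, against 0.033, -0.12 and 0.029 in Control 1, 2 and 3. Control 2 was the lowest of the 6 samples and Menopausal 2 the highest. A low Control 2 was not particular to E2 genes. It was also the lowest sample by median for deubiquitinases (-0.045), cullins (-0.041) and the ligases outside the symbol rule (-0.089), but not for the 20S core, the 19S cap or F-box genes. Red cell markers also differed among control samples: 2 of 4 kept probes, of 3 of the 5 listed genes, were called, both of haemoglobin Hbb-b1. Hbb-b1 probe 7901 was also called among menopausal samples (limma moderated F, adjusted p = 0.012). Control 2 was the lowest control sample at both Hbb-b1 probes and at Slc25a37, but Control 1 was at Alas2. The medians of the red cell list were 0.33, 0.050 and -0.34 in Menopausal 1, 2 and 3, against -0.16, -0.35 and 0.51 in Control 1, 2 and 3, with Control 2 lowest and Control 3 highest. Those of the proximal tubule list, with 4 kept probes, were -0.16, 0.21 and -0.029 in Menopausal 1, 2 and 3. In Control 1, 2 and 3 they were 0.16, -0.14 and 0.040. There Menopausal 2 was the highest sample, as for the E2 probes, and Control 2 the lowest control sample. The part of either list in the E2 values was not tested.

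Among the menopausal samples the same statistic called 0 of the 135 probes, against 0.377% of all, and 12 had an unadjusted p under 0.05, against 13.1% of all. Psmc2 probe 2227 had the smallest p, with 0.013, -0.37 and 0.58 in Menopausal 1, 2 and 3 (limma adjusted p = 0.115). Menopausal 3 stood above the other menopausal samples there, and also at Psme4, with -0.10, -0.049 and 0.28 in Menopausal 1, 2 and 3, at Usp47 probe 7324, with -0.072, -0.039 and 0.34 in Menopausal 1, 2 and 3, and at Ube4b probe 12190, with -0.15, -0.16 and 0.19 in Menopausal 1, 2 and 3. Usp33, a deubiquitinase of adrenergic receptors, was low in Menopausal 1 instead, with -0.38, 0.13 and -0.0051 in Menopausal 1, 2 and 3. Fbxo5, an inhibitor of the anaphase-promoting complex, had the widest range of these 12, with 0.51, 0.046 and -0.56 in Menopausal 1, 2 and 3, and passed the background filter through the menopausal samples only.

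A further list held 103 symbols of the pathway that the symbol rule leaves out, a few of them second names of the same gene. From this list 62 genes had a probe used here, and 44 of these had at least 1 kept probe. limma called 0 of their 58 probes between menopausal and control cortex, and 2 had an unadjusted p under 0.05, both higher, against 2.54% of all probes in that direction. The differences were positive at 33 and negative at 25, with a median of 0.024, and with global loess at 29 and 29, with a median of 0.00017. Nploc4 and Ufd1 are cofactors of Vcp, the segregase that pulls tagged proteins out of membranes and complexes. Nploc4 had -0.063, 0.065 and 0.35 in Menopausal 1, 2 and 3, against -0.082, -0.20 and -0.069 in Control 1, 2 and 3. Its menopausal samples all lay above its control samples, at 0.24 ± 0.10, or 0.082 with global loess, while Vcp was at 0.20 ± 0.15 and Ufd1 at -0.051 ± 0.084. Bap1, a deubiquitinase of histone H2A, was at 0.23 ± 0.087, or 0.071 with global loess. Partners and regulators of cullin ligases were positive at 15 of 20 probes, with a median of 0.059, and at 14 of 20 with global loess, with a median of 0.036. Cops6, of the signalosome that removes Nedd8 from cullins, was at 0.16 ± 0.090 and 0.13 ± 0.13. With global loess these were 0.054 and 0.0069. At Cops6 probe 4652 the menopausal samples all lay above the control samples. Rnf14, a ligase, was lower with groups apart at 1 of its 2 probes, at -0.13 ± 0.065. In all, the groups were apart at 2 probes above and 1 below, or 5.17% of the 58, against 12% of all probes.

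The activators of proteasome genes gave no common direction. Nfe2l1 was at -0.048 ± 0.12, -0.078 ± 0.18 and 0.090 ± 0.12 at its 3 probes and Nfe2l2 at 0.060 ± 0.10 at probe 4959 and 0.026 ± 0.072 at probe 15487. Pomp, the maturation factor of the core, was at -0.089 ± 0.10. With global loess Nfe2l2 probe 4959 was at -0.051 and Pomp at 0.0078. Among control samples 1 of the 58 probes was called, against 1.08% of all probes. It was probe 2712 of the ligase Ttc3, with 0.65, -0.93 and 0.35 in Control 1, 2 and 3. The other kept Ttc3 probes were not called. Probe 9136 had -0.012, 0.018 and -0.064 and probe 9619 had 0.125, -0.16 and -0.19 in Control 1, 2 and 3.

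Markers of kidney cell types were set beside these values. Proximal tubule markers had 4 kept probes, of Gatm, Lrp2 and Miox, out of 9 listed genes, with 2 positive and 2 negative and a median of -0.0038. Of the distal tubule list, the probes used here were those of Calb1, a calcium-binding protein. Calb1 probe 2397 had -0.35, -0.080 and -0.20 in Menopausal 1, 2 and 3, against 0.35, 0.0054 and 0.27 in Control 1, 2 and 3. Its menopausal samples lay below its control samples, with a difference of -0.42 ± 0.13 (limma adjusted p = 0.924), and the other 3 Calb1 probes were at -0.27, -0.12 and 0.017. The lists of podocytes, endothelium, immune cells, fibroblasts and adrenal cells had 1 or 2 kept probes each and none at an unadjusted p under 0.05. Collecting duct and fat lists had no kept probe. The part of cell composition in the differences of the proteasome and ubiquitin genes was not tested.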

How the data were processed

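Per the file headers, the scanner tables that the authors deposited hold raw intensity values of every spot and its local background in both channels. The authors also deposited a value table of normalized log2 ratios, 1 per spot and array. The sources used here do not say how it was normalized or scaled, and it served as an alternative only. At 0 of its 12 columns was the array of the column's own label the closest. Each column matched another array, with r from 0.603 to 0.874 in size and negative at all 12. The scanner ratios were of Alexa Fluor 647 over Alexa Fluor 546, so the negative sign goes with the opposite ratio in the table. The column medians ran from -0.072 to 0.10. Which samples a column holds is unsettled, and so is the direction of a group difference under the table's own labels. The scanner tables name each scan with sample codes, 6 in all, which match the 6 labelled samples one to one. The codes are numbers without a group name, so the groups rest on the sample labels, applied to the scanner tables.

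With limma 3.58.1 in R 4.3.3, spot medians were corrected by normexp (offset 50) and normalized by print-tip loess, since with global loess the block of a probe held 0.316 of the variance of the group difference, against 0.00505. Abnormal spots had weight 0 and the 2 copies of a probe were averaged. Least squares, with a dye term for each probe, gave 6 sample values from the 12 log2 ratios. The groups were compared 3 against 3 by the moderated statistic of limma (intensity trend on), and samples within a group with its moderated F statistic, with Benjamini-Hochberg adjustment over 7683 probes at 0.05. The procedure was tested on simulated data. Probes were named if their groups were apart, if they were extreme within their role or among the 5 smallest p within a group, or if they shared such a gene; a few more are named as examples, chosen after their values were seen. The members and lists were chosen with earlier results of these data known. Alternatives changed normalization, background, filter, fit and samples.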

Additional observations from a re-analysis of the deposited data

How the results depend on the processing

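The count of called probes between menopausal and control cortex was 0 in all 34 alternatives, the replicate block (0 called, 3 at an unadjusted p under 0.05) included, and the count at an unadjusted p under 0.05 ran from 2 to 13. Whether the sample numbers used for the block pair the samples could not be decided. Across probes, deviations of samples with the same number correlated at -0.36, -0.52 and -0.11, and no sample correlated best with its own number. Menopausal and control samples of the same number never shared an array, while those of unlike number did. The array layout alone can therefore set these correlations apart, and they cannot settle a pairing. Among control samples 1 probe was called with global loess, with median centring and without the array of Control 1 with Menopausal 2, and 2 with scaling between arrays. Leaving out arrays or samples gave 0 to 1. Among menopausal samples median centring called 1. The median over all kept probes of the set was 0.066 with median centring, 0.053 with plain subtraction and 0.0017 without background subtraction. It ran from 0.0039 to 0.042 with a sample or array left out. The median over core and cap was 0.11 with either median centring or plain subtraction and ran from -0.023 to 0.11 with a sample or array left out. That over the 20S core was 0.16 with plain subtraction, 0.044 without background subtraction and 0.049 to 0.18 with a sample or array left out. With the value table under its own labels, read as Alexa Fluor 546 over Alexa Fluor 647, these medians were -0.033, -0.027 and 0.0066, and with its sign turned they change sign. Of 34 named probes 16 kept their sign in the 33 alternatives on the scanner values, of which 14, the replicate block among them, left the difference of Psmb4 as it is. Of these 16, 10 kept it in the value table as read and the other 6 with its sign turned. Every value does 1 or the other, and the columns match other arrays than those of their labels. These counts are therefore no check on the signs. The cause of the other changes was not tested. Dim probes and 3 samples per group limit what could be detected. The rerun on 9 arrays of the lower slide range, the turned value table and the settings for the 20S core were chosen after seeing the data.

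With global loess, the sign turned at Psmb2 (0.034), Psmc2 probe 927 (-0.14) and Ube2v2 (0.083). With median centring, the sign turned at Psmb2 (0.082), Psmc2 probe 927 (-0.059) and Ube2v2 (0.17). With plain subtraction, the sign turned at Usp29 (0.012), Psmc2 probe 927 (-0.021), Psmg4 (-0.082) and Ube4b probe 12190 (0.13). Without background subtraction, the sign turned at Ube3c (-0.014), Usp29 (0.0033), Psmc2 probe 927 (-0.041), Psmg4 (-0.057) and Psme4 (-0.013). With scaling between arrays, the sign turned at Psme1 probe 7409 (-0.00069) and Ube2v2 (0.018). With the value table, the sign turned at Usp10 (-0.16), Usp16 (-0.018), Uchl5 (-0.026), Usp27x (-0.013), Usp29 (0.063), Psma7 (-0.075), Psmb2 (0.0066), Psme1 probe 11126 (-0.11), Psmc2 probe 2227 (-0.34), Psmc2 probe 927 (-0.033), Psmd2 (-0.29), Ube2d3 probe 13511 (-0.13), Ube2d3 probe 1128 (-0.31), Usp25 (0.16) and Psme4 (-0.31). With a sample or array left out, the differences whose sign turned ran as Psme1 probe 7409 -0.049 to 0.14, Psmg4 -0.0084 to 0.23, Usp16 -0.0012 to 0.22, Usp47 -0.052 to 0.28, Cul3 -0.30 to 0.033, Psmc2 probe 2227 -0.071 to 0.28, Psmc2 probe 927 -0.12 to 0.095, Psmd2 -0.053 to 0.15, Ube2v2 -0.12 to 0.056, Psme4 -0.091 to 0.20, Usp25 -0.29 to 0.10, Ube3c -0.0017 to 0.49, Psmd4 -0.23 to 0.072, Psmd10 -0.19 to 0.062, Ube2d3 probe 13511 -0.023 to 0.24 and Psmb2 -0.19 to 0.017.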
